A study of Mus musculus with 24 samples.

Results

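The genes described here encode the protein coats of plasma lipoproteins, apolipoproteins Apoa1, Apoa2, Apoa4, Apoa5, Apob, Apoc1, Apoc2, Apoc3 and Apoe, together with Mttp, the microsomal transfer protein that loads lipid onto Apob. They were taken by gene name, without regard to their values, and each has 1 row in each of the 3 tables, so they are 10 of 50765 genes. RNA was sequenced from liver and kidney of mice lacking Nudt12, which encodes an enzyme that removes NAD caps from RNA, and of wild-type mice, and from livers of both genotypes taken at 6 times of day. The mutant mice (knockout, KO) were homozygous for a CRISPR deletion of 58 bp in exon 6 of Nudt12. The allele was made in B6D2F1/J embryos and the line was crossed to C57BL/6J, so all knockout values come from 1 edited line. The first set held 3 KO and 3 wild-type (WT) livers and 3 KO and 2 WT kidneys, from animals of 3 to 4 months with no time of day in the labels. The third WT kidney in the labels was not analysed here. The time course held 6 KO and 6 WT livers from animals of 4 to 6 months, kept for 10 days in 12 h of light and 12 h of dark and collected every 4 h from zeitgeber time 0 to 20 (ZT, hours after lights on), with 1 library per genotype and time. The labels do not say that the samples of a group came from separate animals, so p-values measure the spread between these samples.

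Apob is the structural protein of chylomicrons and very-low-density lipoprotein, and Mttp transfers lipid to it in the endoplasmic reticulum. Apoa1 and Apoa2 are the main proteins of high-density lipoprotein, and Apoe is a ligand for receptors that clear remnant particles. The smaller proteins tune the lipases: Apoc2 activates lipoprotein lipase, Apoa5 promotes its action and Apoc3 opposes it. Hepatocytes make most of these proteins, and in mice liver and intestine are the main sources of Apob particles.

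The genes lie in 2 clusters and 3 single sites (GENCODE vM21, GRCm38). On chromosome 9, Apoa1 (chr9:46228580-46230466), Apoc3 (chr9:46232933-46235636), Apoa4 (chr9:46240696-46243459) and Apoa5 (chr9:46268633-46271919) follow each other, with gaps of 2466, 5059 and 25173 bases. On chromosome 7, Apoc2 (chr7:19671579-19677941), Apoc1 (chr7:19689481-19692660) and Apoe (chr7:19696109-19699188) lie on the minus strand, with gaps of 11539 and 3448 bases. Apoa2 (chr1:171225054-171226379), Apob (chr12:7977648-8016835) and Mttp (chr3:138089854-138144968) stand apart. Apoc2 shares its strand with the overlapping gene Gm44805, so its counts are uncertain. Gm44805 had 1132, 1343 and 1144 normalized counts in KO livers, against 1094, 644 and 772 in WT livers. Apoa4, Apoa5 and Mttp overlap genes on the opposite strand. The libraries were stranded. Whether the counting used strand is not given in the labels or headers.

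RefSeq promoter windows (GRCm38.p6, 250 bases before to 50 bases after a start) were found for 8 of the 10 genes, 12 windows in all, and for neither Apoc1 nor Apoc3. Stretches before the start are shown for Apoa5, Apoc2 and Apoe. Apoa5 had the smallest p over the day and Apoc2 the smallest p between genotypes in liver. In the first set, KO and WT livers did not overlap for Apoe, nor for Apoa1, whose window is not shown. Capitals mark the motifs searched on both strands: the E-box CACGTG, the box TATAAA and the nuclear receptor element AGGTCA. The longer cores TAGGTCA, which contains that element, and CAAAGTC were also searched.
Apoa5, chr9:46268358-46268607, plus strand: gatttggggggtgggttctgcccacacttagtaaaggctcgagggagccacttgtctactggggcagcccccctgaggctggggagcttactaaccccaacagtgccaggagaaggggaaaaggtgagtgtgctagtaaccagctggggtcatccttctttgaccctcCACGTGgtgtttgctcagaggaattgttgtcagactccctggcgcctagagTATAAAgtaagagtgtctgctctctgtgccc
Apoc2, chr7:19677942-19678082, minus strand: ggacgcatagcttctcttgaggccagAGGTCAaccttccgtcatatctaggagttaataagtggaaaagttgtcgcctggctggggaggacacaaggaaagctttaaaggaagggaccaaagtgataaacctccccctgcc
Apoe, chr7:19699189-19699438, minus strand: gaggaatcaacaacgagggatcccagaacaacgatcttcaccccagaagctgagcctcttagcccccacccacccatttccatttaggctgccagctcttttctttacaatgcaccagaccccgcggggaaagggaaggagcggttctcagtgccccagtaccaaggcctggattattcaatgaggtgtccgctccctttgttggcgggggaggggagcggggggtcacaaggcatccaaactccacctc

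Counting the start base as 0, the Apoa5 stretch held CACGTG at -82 to -77 and TATAAA at -31 to -26. The E-box stood in both Apoa5 windows, which overlap, and in no other of the 12, against 7.15% of all 32851 windows. TATAAA stood in 5 of the 12 windows (Apoa2, both Apoa5 windows, Apob and a second Apoe window), against 13.6% of all windows. AGGTCA stood in 2 of the 12, Apoc2 at -115 to -110 and again after its start and a second Apoa2 window, against 16.3%. The cores TAGGTCA (2.61% of all windows) and CAAAGTC (4.44%) stood in none of the 12. The Apoe stretch shown held none of these letters. A match describes the letters of a window and is not a measured site.

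All values below are the authors' normalized counts, normalized separately for liver, kidney and the time course. Nudt12 had 211 to 235 normalized counts in KO livers, against 986 to 1301 in WT livers. It had 261 to 348 in KO kidneys, against 1512 and 1583 in WT kidneys. In the time course it had 177 to 254 in KO livers, against 613 to 1180 in WT livers. Sums ran from 24.1 to 27.5 M (mega, 1e+06) in liver, 25.1 to 27.8 M in kidney and 16.9 to 19.9 M in the time course. Of the 10 hepatocyte markers, all were above 0 in every group of livers, and all 10 kidney tubule markers were above 0 in kidney. Mitochondrial genes took 16.1% of the library of WT kidney 1, against 7.40 to 9.54% of the other kidney libraries, and 7.39% of WT liver 1, against 2.27 to 4.54% of the other livers of that set. The pancreas marker sum reached 50581 in 1 KO library of the time course and 7344 in 1 WT library, against medians of 921 in KO and 583 in WT. In KO kidneys it ran from 1702 to 5978 (median 1819), against 1431 and 1623 in WT kidneys.

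The 10 genes together took 2.43 to 3.12% of the liver libraries and 0.0569 to 0.0793% of the kidney libraries. Levels of different genes were compared as normalized counts per kb of the longest coding transcript, by the median over all libraries of a table. In liver Apoa2 (184928 per kb), Apoe (116011), Apoc1 (96798) and Apoa1 (82419) came first, and each overlapped the next in range. Apoc3 (21906) and Apob (20197) followed, and their ranges also overlapped. Apoa5 (5653), Apoc2 (2865), Mttp (1881) and Apoa4 (1700) were lowest. Ranges overlapped between Apoa5 and Apoc2 and between Mttp and Apoa4, but not between Apoc2 and Mttp. In the time course the order was the same but for 2 swaps of neighbours: Apoc1 (90180) stood above Apoe (76641), and Apob (16240) above Apoc3 (10979). In bulk tissue, fewer cells of a type and less RNA per cell cannot be told apart.

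In kidney the order was another one. Apoe led with 2354 per kb, followed by Apob (909), neither overlapping the next gene in range. Mttp (202), Apoc3 (197) and Apoa4 (182) formed an overlapping group. Apoa2 (115), Apoc1 (86.2) and Apoa1 (18.4) were lower, and Apoc2 and Apoa5 stood at 2.64 and 1.93 per kb. Of the leading 4 genes in liver, Apoa2, Apoc1 and Apoa1 were outside the leading 5 in kidney, and Apoe was not.

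**Figure D1:**
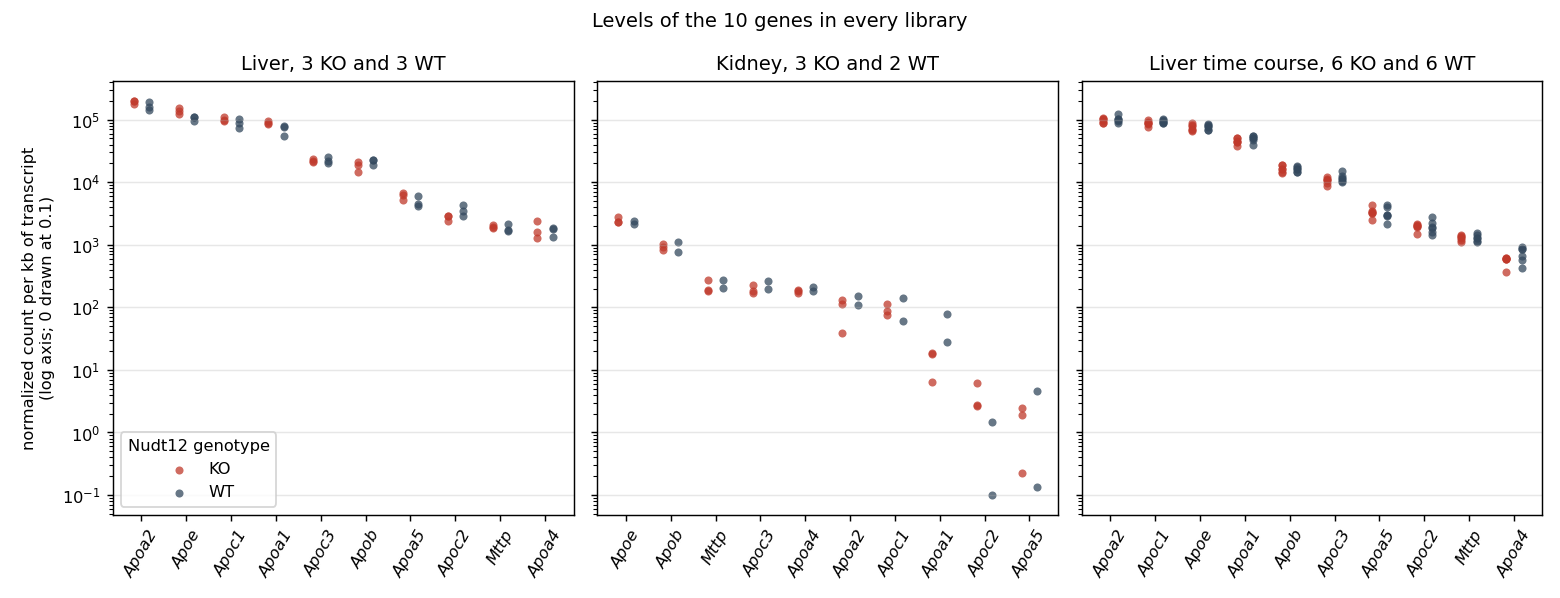
Normalized counts per kb of transcript (log axis) of the 10 genes, 1 point per library, KO left of WT, in liver, kidney and the liver time course. Apoa2 is first in both sets of livers, Apoe is first in kidney, and Apoc2 and Apoa5 fall to a few counts or 0 in kidney.

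As a share of the library, Mttp and Apoa4 differed least between the tissues. The median share of Mttp was 10.6 times as high in liver as in kidney among KO samples and 7.51 times among WT samples. Apoa4, a satiety-linked apolipoprotein that rodent liver makes as well as intestine, was 9.13 times as high in KO and 9.26 times in WT. Apob was 20.3 times as high in KO and 22.8 times in WT, and Apoe was 56.5 times as high in KO and 46.0 times in WT. Apoc3 was 121 times as high in KO and 95.7 times in WT. Apoc1 was 1185 times as high in KO and 855 times in WT. Apoa2 was 1671 times as high in KO and 1272 times in WT. Apoa1 showed the widest gap between genotypes of the 8 genes set out here, 5181 times in KO and 1513 times in WT, which rests on kidney values of 6.68 to 81.0 normalized counts. For all 8 the lowest liver library stood above the highest kidney library in both genotypes. No ratio is given for Apoa5 and Apoc2, whose kidney values were a few counts. Apoa5 had 4.86, 0.56 and 6.18 normalized counts in KO kidneys, against 11.5 and 0.34 in WT kidneys. Of the 10 small intestine markers, Sis, Alpi, Cdx2, Cdx1 and Fabp6 were listed at 0 in every library. The sum of the 10 was 609 to 1367 in KO livers, against 532 to 587 in WT livers, nearly all of it Fabp2. In the time course it was 366 to 427 in KO livers, against 476 to 622 in WT livers. It was 5302 to 5447 in KO kidneys, against 4950 and 5414 in WT kidneys, nearly all of it Vil1, which kidney tubules also express. The part of intestinal RNA in these values was not tested.

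**Figure D2:**
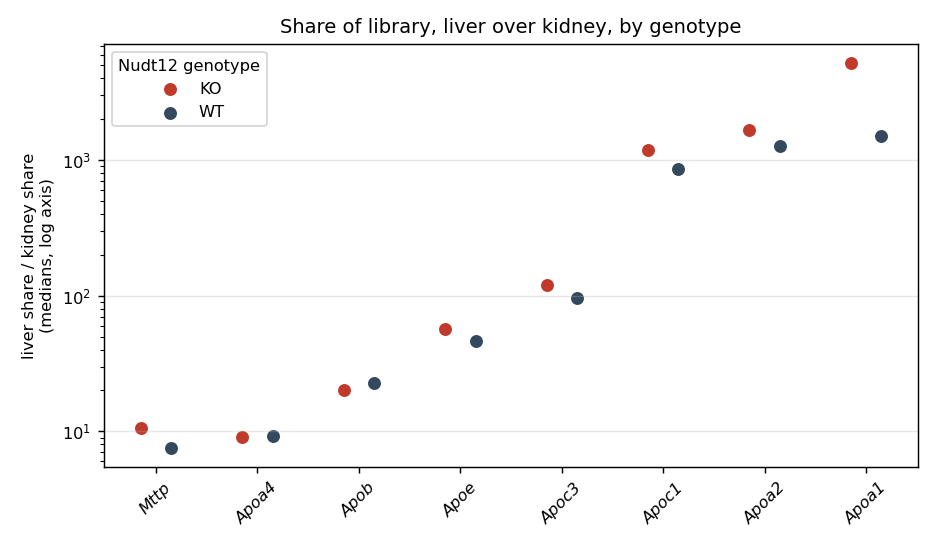
Ratio of the median library share in liver to that in kidney (log axis) for 8 of the genes, KO left of WT at each gene. Mttp and Apoa4 reach at most 10.6, while Apoc1, Apoa2 and Apoa1 are at 855 or more in both genotypes.

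The effect of losing Nudt12 was first compared in the liver set of 3 KO and 3 WT samples. No apolipoprotein gene and not Mttp passed limma's adjusted threshold of 0.05 (0 of 10, where 0.0157% of the 19088 genes tested passed). None had an unadjusted p under 0.05 either, against 7.99% of all genes. Estimates lay above 0 for 8 of the 10, against 50.3% of all genes, with a median log2 difference of 0.16, against 0.00 for all genes. KO and WT values did not overlap for 2 of the 10, Apoa1 and Apoe, both higher in KO, while 13.9% of all genes had no overlap and 7.07% had none with KO higher.

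Among the structural and assembly genes, Apob had 202101, 265688 and 297167 normalized counts in KO livers, against 265333, 315970 and 311727 in WT livers. KO liver 1 was the lowest of the 6, and the groups overlapped. The log2 difference was -0.24 (SE 0.26, 95% interval -0.83 to 0.36, limma adjusted p = 0.840), and -0.08 without KO liver 1. Mttp had 7387, 8261 and 7525 in KO livers, against 8504, 6534 and 6847 in WT livers. WT livers held both the highest and the lowest value, and the log2 difference was 0.09 (95% interval -0.26 to 0.44).

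Of the high-density genes, Apoa1 had 92112, 89098 and 97706 normalized counts in KO livers, against 78329, 81509 and 57181 in WT livers. All 3 KO values stood above all 3 WT values, and WT liver 3 was the lowest by a wide margin. The log2 difference was 0.38 (SE 0.21, 95% interval -0.10 to 0.86, limma adjusted p = 0.678), a ratio of 1.30. Without WT liver 3 it was 0.22. Apoa2 had 103845, 102661 and 90999 in KO livers, against 81871, 74413 and 100586 in WT livers. These groups overlapped through WT liver 3, with a log2 difference of 0.22 (95% interval -0.25 to 0.69).

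Apoe, the remnant ligand, had 215503, 196842 and 171906 normalized counts in KO livers, against 154781, 133499 and 152553 in WT livers. Every KO value stood above every WT value. The log2 difference was 0.40 (SE 0.22, 95% interval -0.10 to 0.90, limma adjusted p = 0.671), a ratio of 1.32. Leaving out each library in turn gave 0.33 to 0.49. Its neighbour Apoc1, which inhibits lipoprotein uptake and lipase activity, had 52967, 58680 and 50026 in KO livers, against 53769, 39022 and 46655 in WT livers. WT liver 1 lay among the KO values, and the log2 difference was 0.22 (95% interval -0.21 to 0.66).

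The lipase regulators had estimates on both sides of 0. Apoc2, the activator, had 1714, 2072 and 2086 normalized counts in KO livers, against 2564, 2079 and 3141 in WT livers. WT liver 2 lay between the KO values, and the other 2 WT livers stood above all of them. The log2 difference was -0.39 (SE 0.18, 95% interval -0.81 to 0.03, limma adjusted p = 0.642). Apoc3, the inhibitor, had 16910, 15699 and 14988 in KO livers, against 18168, 14201 and 15364 in WT livers. Its log2 difference was 0.00 (95% interval -0.36 to 0.36), so a change of more than 1.28 times either way lay outside the interval. Apoa5 had 15447, 13204 and 16829 in KO livers, against 15232, 10614 and 11217 in WT livers, with a log2 difference of 0.31 (95% interval -0.12 to 0.74). Apoa4 had 2913, 2366 and 4292 in KO livers, against 3259, 2430 and 3416 in WT livers. KO liver 3 was the highest and KO liver 2 the lowest, and the log2 difference was 0.04 (95% interval -0.51 to 0.59).

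Other genes that differed between these livers are given beside these values. Clock genes had an unadjusted p under 0.05 for 13 of 17, 10 of them higher in KO and 3 lower. Dbp, a clock output gene, had 1526, 1203 and 1454 normalized counts in KO livers, against 401, 32.5 and 36.9 in WT livers. Acute-phase genes had an unadjusted p under 0.05 for 13 of 14, all lower in KO. The summed clock list ran from 12029 to 14257 in KO livers, against 5524 to 8250 in WT livers. The summed acute-phase list ran from 421799 to 448088 in KO livers, against 501515 to 1230600 in WT livers. An unadjusted p under 0.05 was found for 11 of 17 clock genes in kidney and 0 of 17 between genotypes in the time course. There, Dbp had 17.7 to 1178 in KO livers, against 12.4 to 1222 in WT livers. Genotype and time of collection cannot be told apart in the first set, whose labels give no time. Both lists are known from earlier results of these data to differ, and their part in the values of the apolipoprotein genes was not tested. In the first set the hepatocyte marker sum was 1595030 to 2268950 in KO livers, against 1615650 to 1641150 in WT livers. Albumin in KO liver 1 made the highest sum. The authors' deposited table gave no adjusted p under 0.05 for the 10 genes in liver, where 1.38% of its genes had one. Its lowest among them was 0.344 for Apoe.

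In kidney, again none of the 10 genes passed the adjusted threshold in limma (0 of 10, where 0.0045% of 22224 genes tested passed), and 1 had an unadjusted p under 0.05, against 5.4% of all genes. Estimates lay below 0 for 8 of the 10, against 49.7% of all genes. With 3 KO and 2 WT kidneys, groups did not overlap for 20.5% of all genes, and for 2 of the 10: Apoa1, lower in KO, and Apoc2, higher in KO.

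Apoa1 had 19.1, 18.5 and 6.68 normalized counts in KO kidneys, against 81.0 and 28.4 in WT kidneys. All 3 KO values stood below both WT values, as for 10.6% of all genes, and WT kidney 1 was highest. The log2 difference was -1.77 (SE 0.62, 95% interval -3.24 to -0.29, limma adjusted p = 0.878). Without WT kidney 1 it was -1.03 (adjusted p = 0.734), and without KO kidney 3 it was -1.31. Of the 10 hepatocyte markers, 5 were read library by library, of which 3 were highest in WT kidney 1 and 2 were not. Ahsg had 24.5, 19.8 and 26.3 in KO kidneys, against 121 in WT kidney 1 and 20.4 in WT kidney 2. Albumin had 225, 396 and 184 in KO kidneys, against 772 in WT kidney 1 and 164 in WT kidney 2. Fgb had 70.8, 17.9 and 24.5 in KO kidneys, against 128 in WT kidney 1 and 46.7 in WT kidney 2. Ttr had 1382, 3449 and 2230 in KO kidneys, against 1607 in WT kidney 1 and 2192 in WT kidney 2. Serpina1a had 1551, 1991 and 2122 in KO kidneys, against 2106 in WT kidney 1 and 1321 in WT kidney 2. All 10 hepatocyte markers were above 0 in both groups of kidneys, with sums of 43777 to 46231 in KO and 48990 to 49842 in WT, most of it from Hnf4a and Cyp2e1. Their part in the Apoa1 values was not tested.

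Apoc2 had 1.92, 4.47 and 2.02 normalized counts in KO kidneys, against 0 and 1.08 in WT kidneys. Of all genes, 9.9% had every KO kidney above both WT kidneys. The log2 difference was 1.34 (95% interval -0.27 to 2.95, limma adjusted p = 0.909), which rests on a few counts. Apob, which kidney tubule cells can also secrete, had 14302, 12659 and 11365 in KO kidneys, against 10878 and 15315 in WT kidneys. The WT kidneys were the lowest and the highest of the 5, and the log2 difference was -0.02 (95% interval -0.42 to 0.38). Mttp had 737, 1085 and 723 in KO kidneys, against 801 and 1101 in WT kidneys, with a log2 difference of -0.17 (95% interval -0.71 to 0.36). Apoe had 3917, 3239 and 3315 in KO kidneys, against 3406 and 3007 in WT kidneys, and its interval was the narrowest of the 10 in kidney (log2 difference 0.12, 95% interval -0.17 to 0.41). Apoa4 had 329, 349 and 306 in KO kidneys, against 331 and 377 in WT kidneys, with an interval of -0.47 to 0.25 around -0.11. Apoc3, Apoc1 and Apoa2 averaged 137 ± 22.6, 48.6 ± 9.69 and 49.3 ± 25.3 in KO kidneys (SD, n = 3), against 162 ± 32.2, 53.6 ± 30.9 and 66.9 ± 14.6 in WT kidneys (SD, n = 2). The authors' deposited table gave no adjusted p at all for Apoa5 and Apoc2 in kidney. For the rest of the 10 genes it gave none under 0.05, where 0.489% of its genes with an adjusted p had one.

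**Figure D3:**
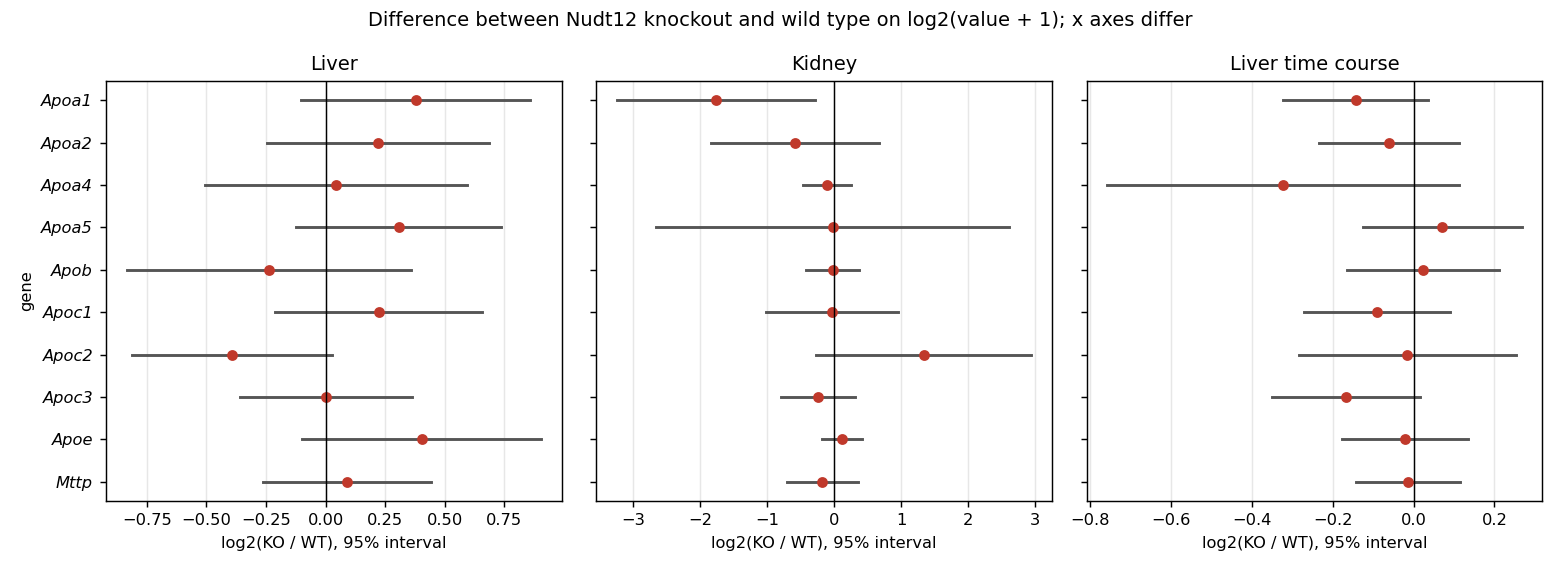
Log2 ratio of KO to WT for each gene with its 95% interval from limma (the 3 x axes have different ranges), in liver, kidney and the liver time course. The Apoa1 interval in kidney, -3.24 to -0.29, is the one that leaves out 0.

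The KO effects in liver and kidney were set against each other in a joint fit. None of the 10 differences passed the adjusted threshold (0.00463% of 21609 genes did), and 2 of the 10 had an unadjusted p under 0.05, against 4.88% of all genes. For Apoa1 the log2 KO effect in liver exceeded that in kidney by 2.14 (95% interval 0.79 to 3.50, limma adjusted p = 0.771). The value was 1.40 without WT kidney 1 and 2.88 without WT kidney 2. For Apoc2 it was lower in liver by 1.73 (log2 difference -1.73, limma adjusted p = 0.771), which rests on the few counts in kidney.

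In the time course, where each KO liver has a WT liver of the same time, none of the 10 genes passed the adjusted threshold between genotypes in limma (0 of 10, where 0.00535% of 18702 genes passed), and none had an unadjusted p under 0.05, against 5.99% of all genes. KO and WT values overlapped for all 10, while 0.198% of all genes had no overlap. Estimates lay below 0 for 8 of the 10, against 50.4% of all genes. The intervals were narrower than in the first set of livers. For Mttp the log2 difference was -0.01 (95% interval -0.14 to 0.12), for Apoe -0.02 (-0.18 to 0.13) and for Apob 0.02 (-0.17 to 0.21).

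Apoa1 ranged from 38655 to 52477 normalized counts in KO livers (median 45568), against 40149 to 57294 in WT livers (median 52776). KO was higher at 2 of 6 times, and the log2 difference was -0.14 (95% interval -0.32 to 0.04, limma adjusted p = 0.859). Apoc3 ranged from 6219 to 8505 in KO livers (median 7605), against 7153 to 10738 in WT livers (median 8156), with a log2 difference of -0.17 (95% interval -0.35 to 0.02, limma adjusted p = 0.848). Apoa4 ranged from 670 to 1107 in KO livers (median 1080), against 766 to 1668 in WT livers (median 1372). Its log2 difference of -0.32 (SE 0.19, limma adjusted p = 0.865) rested in part on the ZT16 pair, where the KO liver had 670 and the WT liver 1546. Without that time the difference was -0.15. The log2 differences of Apoa2, Apoa5, Apoc1 and Apoc2 were -0.06, 0.07, -0.09 and -0.02.

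Apoa1 and Apoe, which stood apart in the first set, overlapped here. The KO effect of the first set exceeded that of the time course by a log2 difference of 0.52 for Apoa1 (95% interval 0.12 to 0.92, limma adjusted p = 0.352). For Apoe it did so by 0.42 (95% interval 0.06 to 0.79, limma adjusted p = 0.420). None of the 10 passed the adjusted threshold for this difference (0.0369% of 18972 genes did), and 2 of 10 had an unadjusted p under 0.05, against 10.2% of all genes. Age and normalization differ between the sets, the first set has no time of day in its labels, and these cannot be told apart. Acute-phase genes had estimates above 0 in KO for 14 of 14 in the time course and below 0 for 14 of 14 in the first set. The authors' deposited table gave an adjusted p of 0.9998 for all 10 genes in the time course, where 0.0363% of its genes were under 0.05.

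Variation over the day was tested in 2 ways. For a 24 h cosine fitted over the 12 livers, none passed limma's adjusted threshold (0 of 10, where 5.8% of 18702 genes passed), and 3 had an unadjusted p under 0.05, against 21% of all genes. The median amplitude, mean to peak on the log2 scale, was 0.16 for the 10 genes and 0.29 for all genes tested. A fitted amplitude is never below 0 and grows with noise, and all genes tested include those of low counts. These medians are therefore not a like comparison. Among the function lists given below, the median was 0.24 for assembly, 0.26 for lipases and remodelling and 0.33 for receptors. It was 0.20 for other apolipoproteins and 0.26 for regulators. Tested as any difference between the 6 times, again none passed (1.89% of all genes did), and 2 had an unadjusted p under 0.05, against 15.7%.

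Apoa5, the promoter of lipase action whose window is shown above, had the largest amplitude. From ZT0 to ZT20 it had 6285, 8336, 8240, 10755, 7957 and 8821 normalized counts in KO livers, against 5397, 7352, 7476, 10847, 10140 and 7431 in WT livers. Both genotypes were lowest at ZT0 and highest at ZT12, the start of the dark phase. The mean at ZT12 was 1.85 times that at ZT0. The fitted amplitude was 0.33 (SE 0.08) with a peak at ZT 12.8 h, a peak 1.58 times the trough, and the adjusted p was 0.0538. It ranged from 0.0430 to 0.604 over the alternatives, and was 0.316 without ZT0 and 0.321 without ZT12. Fitted alone, KO livers gave an amplitude of 0.23 with a peak at ZT 12.1 h and WT livers 0.43 with a peak at ZT 13.2 h.

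Mttp, the lipid transfer protein, was highest at another time. From ZT0 to ZT20 it had 5520, 4388, 4653, 5339, 5025 and 5623 normalized counts in KO livers, against 5768, 4315, 4483, 5159, 5082 and 6150 in WT livers. Both genotypes were lowest at ZT4 and highest at ZT20, with a mean at ZT20 1.35 times that at ZT4. The amplitude was 0.18 (SE 0.05), the peak ZT 19.3 h and the adjusted p 0.136. The ratios of KO to WT at the 6 times ran from 0.914 to 1.04, the narrowest range of the 10 genes. Apoc3 (amplitude 0.19, peak ZT 19.5 h, adjusted p = 0.135) and Apoc2 (0.24, ZT 19.7 h, adjusted p = 0.244) had fitted peaks near that of Mttp.

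The remaining genes had amplitudes from 0.06 to 0.23. Apob was lowest at ZT0 and highest at ZT20 in both genotypes, with 195938 and 267213 normalized counts in KO livers, against 203588 and 249632 in WT livers, and an adjusted p of 0.357. Apoe was highest at ZT16 in both genotypes, with 122549 in the KO liver and 120827 in the WT liver. Apoa1 was lowest at ZT0 in both genotypes, and its highest time was ZT16 in KO and ZT8 in WT. Apoc1 had the smallest amplitude, 0.06 (SE 0.05). Apoa4 had the widest spread over the 12 livers, with an SD of 0.39 on the log2 scale, but its adjusted p for a 24 h rhythm was 0.521. WT was highest at ZT20. KO was highest at ZT8 by a few counts, as all KO livers but that of ZT16 (670) had 1065 to 1107.

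**Figure D4:**
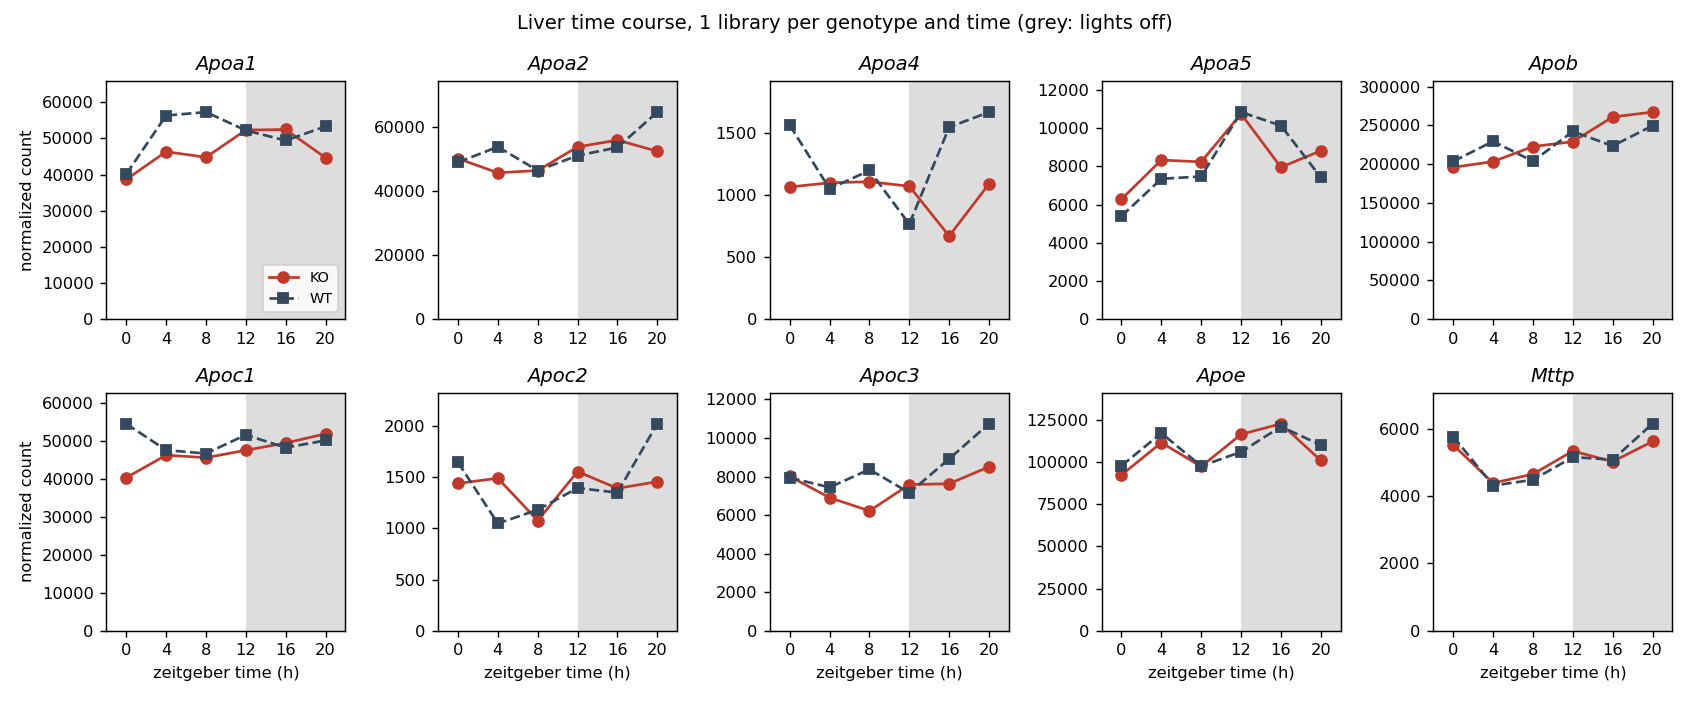
Normalized counts of each gene by zeitgeber time (h), 1 library per point, KO as circles and solid lines, WT as squares and dashed lines, with the dark phase in grey and y axes from 0. Apoa5 is highest at ZT12 and Mttp at ZT20 in both genotypes, and the KO point of Apoa4 at ZT16, 670, stands below the rest.

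**Figure D5:**
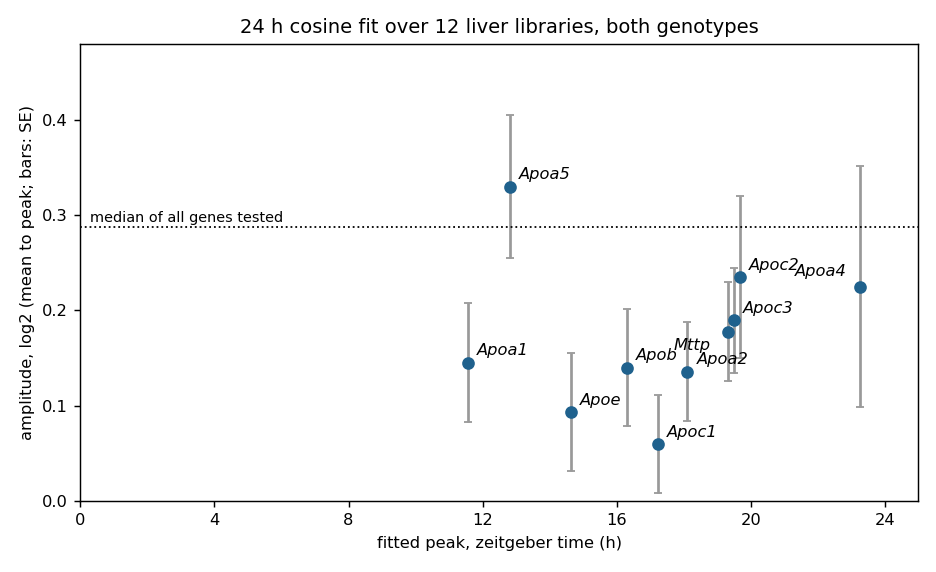
Amplitude of the 24 h cosine fit (log2, mean to peak, bars are SE) against the fitted peak time for each gene over 12 livers of both genotypes. Apoa5 alone lies above the dotted median amplitude of all genes tested, 0.29, which include genes of low counts. Apoc2, Apoc3 and Mttp have peaks between ZT 19.3 h and 19.7 h.

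Whether the rhythm differed between genotypes was tested as an interaction. None of the 10 genes passed the adjusted threshold in limma, as did 0% of all genes, and none had an unadjusted p under 0.05, against 4.78% of all genes. The smallest unadjusted p was that of Apoa4, 0.0770.

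The genes were compared with one another over the 12 livers of the time course, which share time, genotype and library, so that Pearson's r is a description. The highest r was between Apoc2 and Mttp, 0.81, which lie on chromosomes 7 and 3. Apoa2 and Apoc3 followed with 0.71 and Apoa2 and Apob with 0.65. The lowest was -0.38, between Apoa1 and Mttp. Among 8556 genes with a mean of at least 100, those most like Apoa5 were Eef2 (r = 0.92), Eif4enif1 (0.90), Slc1a2 (0.89), Cdv3 (0.89) and Slc39a14 (0.87). Those most like Apoa4 were Hdhd3 (0.88), Alad (0.88), Trmt5 (0.86), Clstn3 (0.84) and Mtap (0.82). Both sets were picked as the highest of 8556 values of r over 12 livers. How high r would reach by chance was not tested.

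Other genes of the lipoprotein pathway were taken from lists chosen by function. None of them passed the adjusted threshold between genotypes in limma in liver, kidney or the time course. In liver an unadjusted p under 0.05 was found for 7.99% of all genes and for 2 of 20 genes of particle assembly and secretion. It was also found for 3 of 16 lipases and remodelling factors and 1 of 14 receptors. These listed genes were all higher in KO. It was found for 3 of 11 other apolipoproteins and editing factors, all lower in KO, and 8 of 24 regulators, all higher. The regulator list shares Nr1d1 and Nr1d2 with the clock list. The corresponding counts were 2 of 20, 1 of 16, 1 of 15, 0 of 13 and 1 of 23 in kidney (5.4% of all genes), and 3 of 20, 2 of 16, 0 of 13, 0 of 13 and 1 of 24 in the time course (5.99% of all genes).

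Over the day, calls among these lists were more frequent than among the apolipoprotein genes, a difference that was not tested. In the 24 h fit, 6 of 20 assembly genes passed (5.8% of all genes did). Sort1, a sorting receptor that binds Apob, had an amplitude of 0.78 with a peak at ZT 5.82 h (adjusted p = 0.00049). Mia2, which helps export large cargo from the endoplasmic reticulum, had 0.48 with a peak at ZT 10.1 h (adjusted p = 0.0107). Dgat2, which makes triglyceride, had 0.33 with a peak at ZT 14.3 h, and Pla2g12b had 0.30 with a peak at ZT 0.91 h. Of the lipases and remodelling factors 4 of 16 passed: the sterol exporters Abcg5 (1.06, peak ZT 10.2 h) and Abcg8 (0.95, ZT 9.19 h), Lpl, the lipase itself (0.65, ZT 4.10 h), and its inhibitor Angptl4 (1.11, ZT 12.97 h). Receptors passed for 2 of 13 (Sdc1 and Lrp2) and other apolipoproteins for 1 of 13 (Saa4). Of the regulators 6 of 24 passed. Nr1d1, a nuclear receptor that represses transcription, had an amplitude of 3.36 with a peak at ZT 7.60 h. Nr1d2 had 2.07 and Pparg, a regulator of fat storage, 0.76.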

How the data were processed

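RNA from mouse liver and kidney (500 ng per sample, depleted of ribosomal RNA, stranded, single reads of 100 bases, per the labels) was analysed in 23 of 24 samples. The authors deposited estimated counts per gene, already normalized (a signal that is never negative), in 3 separate tables, with their own log2 fold change and adjusted p-value, per the file headers. The submitters' processing notes name R 3.6.0, DESeq, DESeq2 1.24.0 and Salmon 0.12.0 without saying which step used which. Values were not whole reads (12.3 to 26.6% of low values were whole within 0.001), so the count test that had been foreseen was replaced by two-sided limma 3.58.1 tests (R 4.3.3) of log2(value + 1). Genes averaging 1 or more entered, the prior variance followed a trend, and p-values were adjusted by Benjamini-Hochberg over all of them. The scale understates changes of low genes. The time course model held genotype and time, because the labels give shared times (correlation of same-time deviations 0.037 to 0.167). Rhythm was a cosine and sine of 24 h. Fits were tested on simulated data with planted log2 changes of 1, 2 and 3. Smaller changes, such as those estimated for the 10 genes in liver, were not simulated. Depth was about 12.5 to 28.6 M reads per library. All 10 genes, the listed genes past the threshold (up to 4 per list) and the 5 genes most like 2 of them are named. 1 result under this rule is not reported here. The genes and lists were chosen with earlier results of these data known. Ahsg, albumin, Fgb, Ttr, Serpina1a, Dbp and Gm44805 were chosen after their values were seen. Alternatives changed the pseudocount, filter, scaling, variance model, block and libraries. Python 3.11.15 and pandas 2.3.3 made the summaries.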

Additional observations from a re-analysis of the deposited data

Results flagged for a closer look

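Of the 20 groups of 6 livers checked (10 genes, 2 genotypes, time course), 2 held a library far from the others by Dixon's ratio, where chance alone flags about 1 in 20 groups. Apoa4 had 670 normalized counts in the KO liver of ZT16, below the other 5 KO livers. Apoc2 had 1076 in the KO liver of ZT8, below the other 5 KO livers. The 6 livers of a group were each taken at another time of day.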

How the results depend on the processing

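An alternative result is that of a gene in a test under a changed setting. Of 998 alternative results for the 10 genes, 995 stayed on their side of the threshold and 0 reversed a called value. The other 3 brought Apoa5 past the threshold: its 24 h rhythm with genes averaging at least 10 (adjusted p = 0.0457) and without ZT4 (0.0430), and its difference between times without ZT16 (0.0433). In 25 of these results an estimate that was not called changed sign. Among them were Apob, Apoc1, Apoa5 and Mttp in kidney, Apoa4 and Apoc3 in liver, and Apob, Apoc2 and Mttp in the time course. None of the 10 genes was called at the settings reported, and few genes were between genotypes, so staying uncalled says little about stability. Nudt12, the deleted gene, was itself called between genotypes in 11 of 13 alternatives in liver, 4 of 12 in kidney and 8 of 14 in the time course.

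Counts over all genes moved more. With a pseudocount of 0.1 the calls were 1 in liver, 2 in kidney and 5 for the difference between the tissues. Without a filter they were 8 in liver and 0 in kidney. With genes averaging at least 10 they were 1 in liver, 0 in kidney and 21 for the difference between the 2 sets of livers. Without a trend they were 0 in kidney, 0 between genotypes in the time course, 48 between times and 584 for the rhythm. A fit of liver and kidney together called 59 genes in liver and 2 in kidney. KO livers alone gave 17 rhythmic genes and WT livers alone 6, with fewer samples. Leaving out each library or time in turn gave 0 (without KO liver 2) to 38 (without WT liver 1) calls in liver, 0 to 2 in kidney, 0 to 1 between genotypes in the time course, 173 to 280 between times and 475 to 674 for the rhythm. It gave 0 to 9 for the difference between tissues and 0 to 126 for that between sets of livers, the highest without WT kidney 2 and WT liver 1. The causes were not tested. Without the block for shared time, 1 gene was called between genotypes in the time course, as with it, and no call among the 10 genes changed.

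Kidney has 2 WT libraries, and values of a few counts (Apoa5, Apoc2) limit what it can show. The time course has 1 liver per genotype and time, so within a genotype time and animal cannot be told apart.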
